A study of Danio rerio with 6 samples.

Results

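The paired box (pax) genes encode transcription factors that bind DNA through a paired domain and set up regional identity in the embryo. Every probe set annotated to pax2a, pax2b, pax3a, pax5, pax6a, pax6b, pax7a, pax8 or pax9 was taken, which gave 15 probe sets for 9 genes, out of 15502 probe sets for 8793 named genes on the array. The measured embryos were zebrafish hand2 mutants (hanS6 allele) and their wild-type siblings, both whole embryos at 19 hours post fertilization (hpf) raised at 28.5 degrees Celsius, from 3 independent crosses of heterozygous parents. There were 3 Affymetrix arrays of mutants and 3 of siblings, each of RNA pooled from 10 to 25 embryos. Genotypes were told apart by a green reporter driven by the heart gene myl7. Such sorting does not part homozygous wild-type siblings from heterozygous ones, so the sibling pools can hold both.

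In vertebrates the paired genes fall into subfamilies with shared ancestry and partly shared sites of expression. The genes pax2a, pax2b, pax5 and pax8 form the pax2/5/8 subfamily, which acts at the boundary of midbrain and hindbrain, in the ear placode and in the intermediate mesoderm that gives rise to the pronephros, the embryonic kidney. The genes pax6a and pax6b act in eye, forebrain and spinal cord, and pax6b also in the endocrine pancreas. The genes pax3a and pax7a act in dorsal neural tube, neural crest and the muscle-forming part of the somite, and pax9 in sclerotome and pharyngeal pouches. The gene hand2 encodes a basic helix-loop-helix factor of lateral plate mesoderm, heart, arches and fins, and in zebrafish it is known to limit how much intermediate mesoderm forms. Against that background the comparison asks whether the pax2/5/8 genes, or pax genes of other territories, differed between mutants and siblings.

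The hand2 transcript, which checks the labels, had signals of 52.8, 50.9 and 45.1 in the mutants, against 348.9, 447.7 and 292.2 in the siblings (limma, adjusted p = 0.0051). The mutant values lay below the brightest of 17 Tag control probe sets, which are synthetic tags, on the same arrays (57.0 to 80.2). Signals are linear MAS5 intensities, tests were run on log2(signal + 16), and a fitted difference is mutant minus sibling on that scale with its standard error. Below, "at background" means that no array of the genotype exceeded its own brightest Tag control. That control read 64.1, 122.3 and 63.7 on wild-type replicates 1, 2 and 3, so the bar was highest on wild-type replicate 2. Of the 11626 probe sets tested, 1 (0.0086%), that of hand2, passed an adjusted p of 0.05, and 352 had an unadjusted p under 0.05. The whole-embryo label was met by markers of several territories: above the Tag controls on all 6 arrays were 20 of 23 measured midbrain-hindbrain genes, 9 of 21 eye genes, 15 of 19 dermomyotome and crest genes and 5 of 15 pronephros genes.

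None of the pax genes passed the adjusted threshold. Of the 15 probe sets, 8 passed the filter on dim signals and were tested, covering 7 of the 9 genes, and pax3a and pax8 had none tested. Among the 8, 0 passed after adjustment and 1 (pax5) had an unadjusted p under 0.05 by limma, against 3.03% of all tested probe sets. With the replicate number as a block the unadjusted count was 2 (pax5 and the dimmer pax2b probe set), against 7.41%. Fitted values were higher in mutants for 4 of the 8, among them that dimmer pax2b probe set, whose siblings were at background, and lower for 4. The 3 mutant arrays did not overlap the 3 sibling arrays in 2 of the 8, pax2a and pax5, against 6.75% of all tested probe sets, and the directions were opposite.

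**Figure D1:**
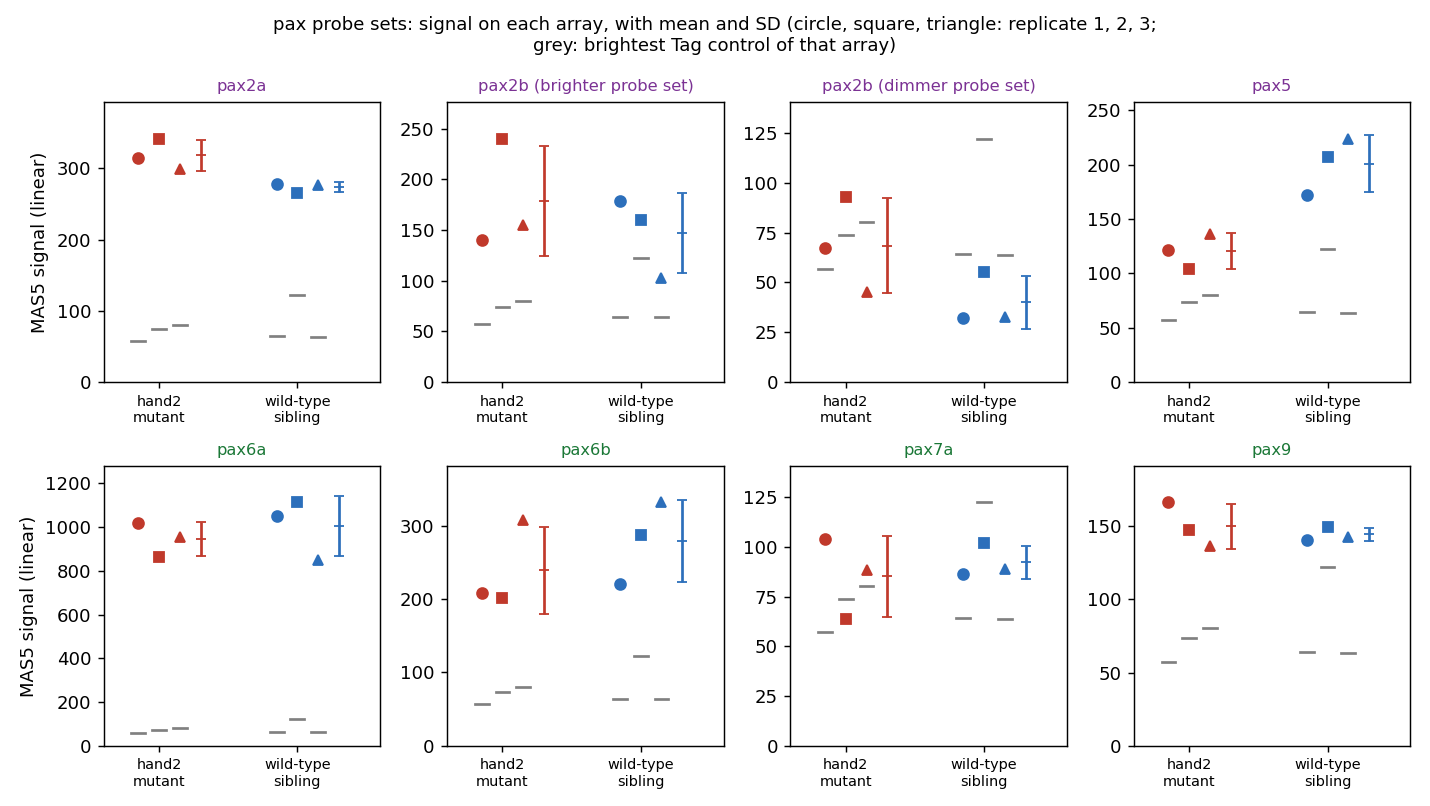
Linear MAS5 signal (y axis) of the 8 tested pax probe sets on each array, hand2 mutants in red at the left and wild-type siblings in blue at the right of each panel; bars are the mean and SD of 3 arrays and grey dashes the brightest Tag control of each array. In pax2a all 3 mutant arrays lie above all 3 sibling arrays, in pax5 all 3 lie below, and in the other panels the genotypes overlap.

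The gene pax5, which in zebrafish is expressed at the midbrain-hindbrain boundary downstream of pax2a, stood farthest from no difference. Its signals were 121.7, 103.5 and 135.8 in the mutants and 171.9, 207.0 and 223.8 in the siblings. The means were 120.4 ± 16.2 in mutants and 200.9 ± 26.5 in siblings (SD, n = 3 each). The highest mutant array lay below the lowest sibling array, as in 3.04% of tested probe sets, and all 6 values were above the Tag control of their own array. The fitted difference was -0.67 ± 0.20, a ratio of 0.629, with a 95% interval from -1.11 to -0.23 (limma, unadjusted p = 0.0071, adjusted p = 0.942). It ranked 39th by p among the 11626 tested probe sets and the 14th among those with lower mutant signal. The embryos were measured whole, so fewer pax5-expressing cells and less pax5 RNA per cell cannot be told apart.

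The pax5 difference had the same sign at each replicate number, -0.45, -0.90 and -0.66. Agreement in sign at all 3 numbers, with mutant lower, was seen in 14.7% of all tested probe sets, and in 2 of the 8 pax probe sets (pax5 and pax6b). For pax5 the lack of overlap between its arrays fixes this agreement, so it is no further support. Leaving out single arrays gave differences between -0.77 and -0.58, and no fit brought pax5 past the threshold; its lowest adjusted p was 0.346, without mutant replicate 3. A second pax5 probe set, designed from the same source sequence, read 13.0, 8.8 and 10.7 in mutants and 15.0, 21.2 and 19.4 in siblings. All 6 values lay below the Tag controls, so neither a size nor a direction is given for this second probe set.

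Of the 9 genes, pax5 alone lies on chromosome 1, the chromosome of hand2, in the gene table of assembly GRCz12tu. Sorting by the mutant phenotype selects the hand2 region together with linked sequence, so the order of genes around it was used to set pax5 beside its neighbours. Between hand2 and pax5 that table has 239 protein-coding genes. With fewer than 100 genes between them and hand2, 14 of 76 tested probe sets (18.4%) had an unadjusted p under 0.05. With at least 100 but fewer than 200 between it was 5 of 84 (5.95%), with at least 200 but fewer than 300 it was 2 of 90 (2.22%), and farther out 10 of 176 (5.68%). The tested pax5 probe set is itself 1 of the 2 in the third of these bands. Over chromosome 1 without hand2 the count was 31 of 428 (7.24%), against 240 of 8304 (2.89%) on other chromosomes. Whether linkage to hand2 had a part in the pax5 difference was not tested.

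The gene pax2a, mutated in the zebrafish no isthmus line and needed for the midbrain-hindbrain boundary, ear and kidney tubule, had signals of 314.6, 341.9 and 298.7 in mutants and 278.6, 266.1 and 276.5 in siblings. All mutant arrays lay above all sibling arrays, as in 3.71% of tested probe sets, but the gap was small. The means were 318.4 ± 21.9 in mutants and 273.8 ± 6.7 in siblings (SD, n = 3 each). The fitted difference was 0.20 ± 0.16, with a 95% interval from -0.16 to 0.56 (limma, adjusted p = 0.942). It was 0.17, 0.34 and 0.11 at the 3 replicate numbers (mutants were higher at all 3 in 16.2% of tested probe sets), and 0.12 and 0.13 with arrays scaled to a common median and by quantiles. The agreement in sign over the numbers is fixed by the lack of overlap and adds no support. A second, dim pax2a probe set lay below the Tag controls on all arrays, between 9.5 and 37.1 in mutants and between 6.6 and 48.4 in siblings.

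The fitted values of pax5 and pax2a had opposite signs, and neither passed the threshold. The log2 ratio of pax5 to pax2a, which a common scaling of an array changes little, is given relative to the sibling mean. It was -0.84, -1.16 and -0.63 in mutants, and -0.22, 0.09 and 0.14 in siblings. The mutant values lay below those of the siblings. The pair was chosen because each gene's arrays did not overlap, which fixes that order, so the ratio is a description of these arrays with no test.

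The gene pax2b, the paralogue of pax2a expressed in overlapping territories somewhat later, was read by a pair of probe sets above the filter. The brighter had signals of 139.8, 240.2 and 154.7 in mutants and 178.4, 160.1 and 103.1 in siblings, so the genotypes overlapped. Its fitted difference was 0.25 ± 0.26, with a 95% interval from -0.34 to 0.84 (limma, adjusted p = 0.942). It was -0.32, 0.54 and 0.52 at the 3 numbers, and was 0.030 with mutant replicate 2 left out and 0.035 with wild-type replicate 3 left out. The dimmer probe set read 67.5, 92.8 and 45.4 in mutants and 32.0, 55.4 and 32.7 in siblings. No sibling array exceeded its Tag control, nor did mutant replicate 3, and the genotypes overlapped. The sibling level is therefore only a bound, and neither a size nor a direction is given for the dimmer probe set.

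The gene pax8, an early marker of ear placode and pronephros, was at background on all 6 arrays and lay under the filter. Its signals were 56.4, 68.9 and 30.5 in mutants and 21.5, 46.1 and 37.1 in siblings. The genotypes overlapped, with mutant replicates 1 and 2 the brightest of the 6 arrays. No size or direction can be given for pax8 at this signal. The 9 genes had 7 probe sets at or below the Tag controls on all 6 arrays.

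**Figure D2:**
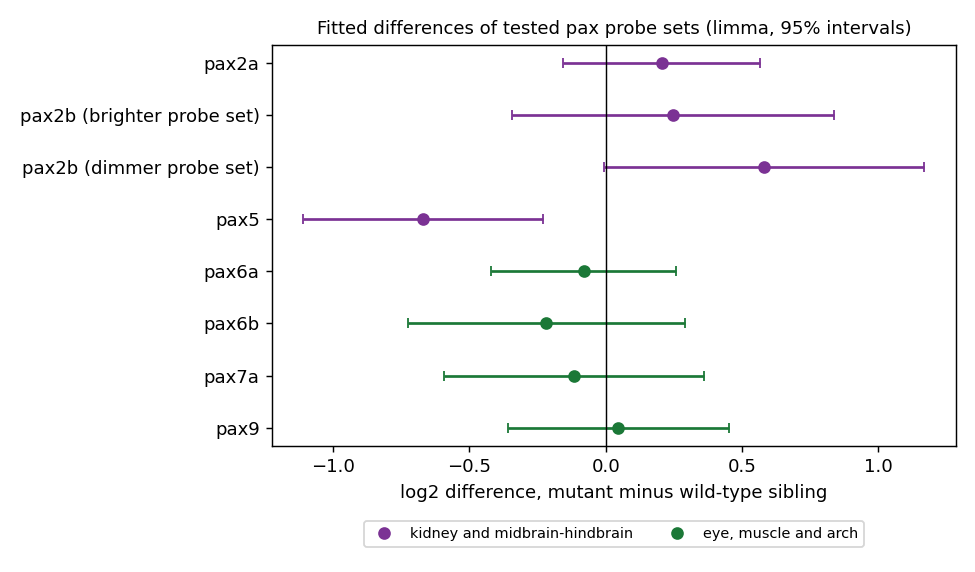
Fitted log2 difference, mutant minus wild-type sibling (x axis), of the 8 tested pax probe sets (rows), with 95% intervals from limma; purple marks kidney and midbrain-hindbrain genes and green marks eye, muscle and arch genes. The interval of pax5 lies wholly below 0, and the other 7 span 0; the siblings of the dimmer pax2b probe set were at background, so its point is no measured size.

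Among the genes of other territories, pax6a, which acts in eye and forebrain, had signals of 1017, 865.0 and 954.0 in mutants and 1052, 1113 and 850.9 in siblings. The genotypes overlapped, and the fitted difference was -0.081 ± 0.15, with a 95% interval from -0.42 to 0.26 (limma, adjusted p = 0.955). It ran from -0.20 without wild-type replicate 3 to -0.0047 without wild-type replicate 2. For its paralogue pax6b, which also acts in the endocrine pancreas, the signals were 208.2, 202.0 and 307.5 in mutants and 220.0, 286.8 and 331.6 in siblings. Mutants were lower at each replicate number, by amounts of -0.074, -0.47 and -0.10, yet the groups overlapped. The fitted difference of pax6b was -0.22 ± 0.23, with a 95% interval from -0.72 to 0.29 (limma, adjusted p = 0.942), -0.40 with mutant replicate 3 left out and -0.091 with wild-type replicate 3 left out.

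The gene pax7a, which marks muscle progenitors, dorsal midbrain and some pigment cell precursors, had 4 probe sets, of which 1 was tested. That probe set read 103.8, 63.5 and 88.2 in mutants and 86.5, 101.8 and 88.8 in siblings, with mutant replicate 2 and wild-type replicate 2 below the Tag control. On wild-type replicate 2 that control was 122.3, the highest of all arrays. The difference was -0.12 ± 0.21, with an interval from -0.59 to 0.36 (limma, adjusted p = 0.955), and its sign turned to 0.047 without mutant replicate 2. The other 3 pax7a probe sets were at background on all arrays, between 5.8 and 52.7 in mutants and between 6.7 and 52.0 in siblings.

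The single pax3a probe set, for a gene of dorsal neural tube and neural crest, was also at background throughout. It read 24.8, 37.8 and 45.7 in mutants and 50.1, 38.0 and 25.6 in siblings, in overlapping ranges. The gene pax9, active in sclerotome and pharyngeal endoderm, read 166.3, 147.4 and 136.3 in mutants and 140.9, 149.8 and 142.6 in siblings. Its fitted difference was 0.046 ± 0.18, with a 95% interval from -0.36 to 0.45 (limma, adjusted p = 0.982). The sign turned under a common median (-0.033) and quantile scaling (-0.031), so pax9 has no direction here. Of the 6 other pax genes in the gene table, pax1b alone had a probe set in the annotation used here, and it was at background, with 2.0 to 10.8 in mutants and 10.3 to 11.8 in siblings.

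Placed side by side, the kidney and midbrain-hindbrain genes ranged more widely than the others, through pax5 alone. Fitted differences of the 3 with a tested probe set ran from -0.67 (pax5) to 0.25 (pax2b), with a median of 0.20 (pax2a). The 4 tested genes of eye, muscle and arch ran from -0.22 (pax6b) to 0.046 (pax9), with a median of -0.099. Over all 7356 tested genes the median was 0.0011, and 50.2% had higher fitted values in mutants. The kidney and midbrain-hindbrain median was -0.32, 0.34 and 0.11 at replicate numbers 1, 2 and 3, and that of the other genes 0.084, -0.42 and -0.033. Neither median kept its sign over the numbers, and the difference between these classes was not tested, as members are not replicates. The eye, muscle and arch median was lowest at number 2. There mutant replicate 2 had the lowest 99th percentile of signal of all arrays (9409, and 10264 to 12771 on the other 5). Wild-type replicate 2 had the highest (12771). The part of these arrays in the class medians was not tested. Without mutant replicate 2 the medians were 0.030 and 0.014, and without wild-type replicate 2 they were 0.19 and -0.030.

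**Figure D3:**
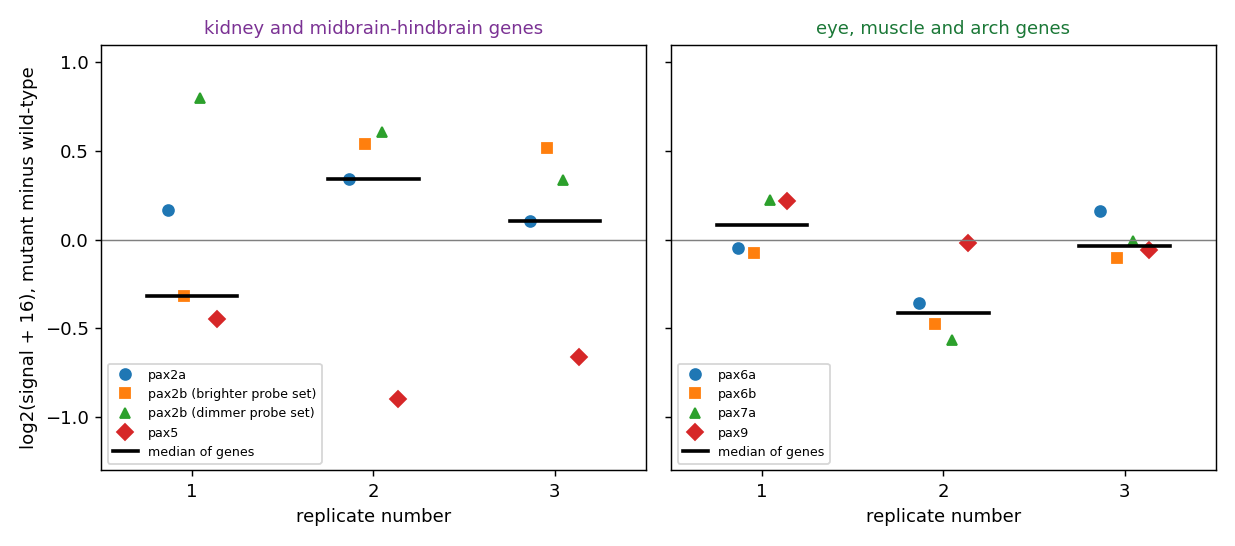
Difference of log2(signal + 16), mutant minus wild-type sibling (y axis), at each replicate number (x axis) for tested pax probe sets of the kidney and midbrain-hindbrain genes (left) and the eye, muscle and arch genes (right); black bars are medians over genes, with the brighter probe set for pax2b, and the points of the dimmer one, with siblings at background, are no measured size. The pax5 points lie at -0.45, -0.90 and -0.66 while pax2a lies at 0.17, 0.34 and 0.11, and in the right panel pax6a, pax6b and pax7a lie lowest at replicate 2.

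The fitted sign of pax2a, the brighter pax2b probe set and pax5 held in every fit in which they were tested, whereas the size of this pax2b difference did not. For pax2a and pax5 much of this was fixed beforehand. Their arrays did not overlap, so leaving arrays out cannot turn the sign, and the filter, block and trend settings leave a fitted difference unchanged. Over the alternatives pax2a lay between 0.12 and 0.25, the brighter pax2b probe set between 0.030 and 0.53, and pax5 between -0.78 and -0.52. Across these fits the adjusted p of pax2a ran upward from 0.654 and that of pax2b from 0.714, so none of the fits made a call.

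**Figure D4:**
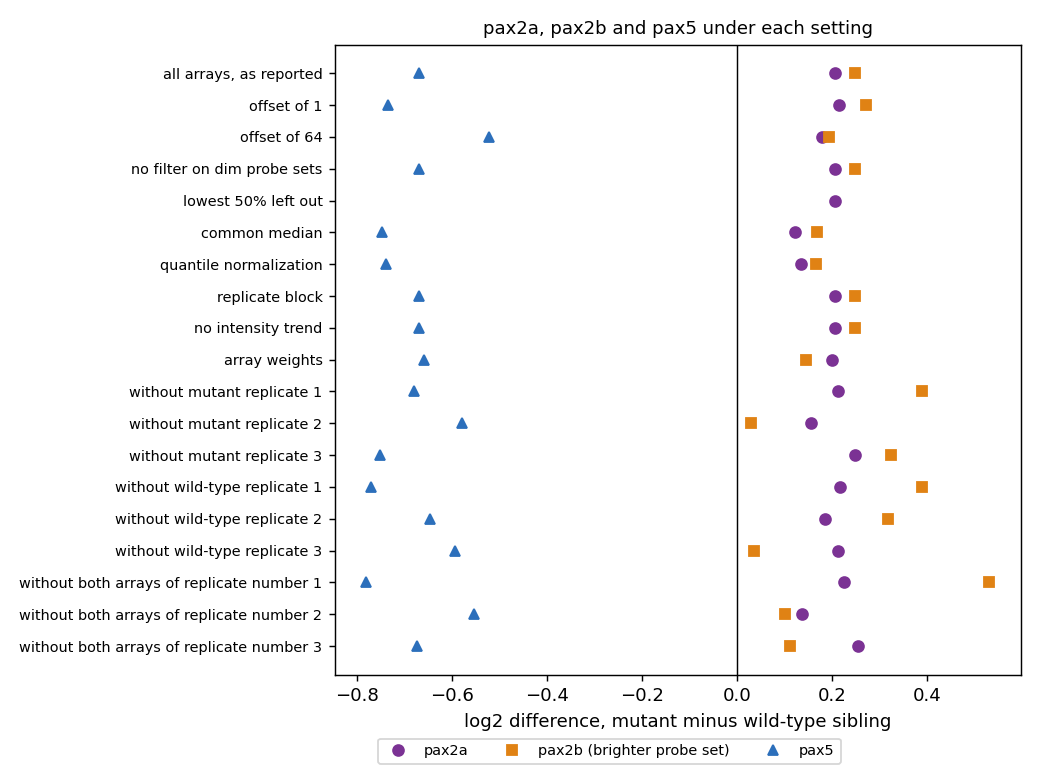
Fitted log2 difference, mutant minus wild-type sibling (x axis), of pax2a, the brighter pax2b probe set and pax5 under each processing setting (rows). All pax5 points lie between -0.78 and -0.52 and all pax2a points between 0.12 and 0.25, while pax2b ranges from 0.030 to 0.53; pax2b and pax5 have no point where the lowest 50% of probe sets was left out.

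Genes of tissues in which pax genes act were read from 8 lists, some of which share genes. At the midbrain-hindbrain boundary, where pax2a and pax5 act with engrailed, Wnt and Fgf genes, 0 of 23 tested genes passed and 0 had an unadjusted p under 0.05 by limma, against 2.98% of all tested genes. With the block 1 did, against 7.42% of all tested genes. Of them 8 had higher and 15 lower fitted values, with a median of -0.069, which turned to 0.045 without mutant replicate 2. The genes of smallest p were the Wnt ligand gene wnt10b and etv5b, a target of Fgf signalling. For wnt10b the signals were 32.5, 11.2 and 80.3 in mutants and 44.9, 78.5 and 93.2 in siblings, above the Tag control on 1 array of each genotype (-0.77 ± 0.42; limma, adjusted p = 0.942). Its difference ran from -1.02 without wild-type replicate 1 to -0.33 without mutant replicate 2, and its probe set stayed above the filter in 13 of 18 alternatives. For etv5b they were 2183, 2484 and 1854 in mutants and 2143, 1517 and 1591 in siblings (0.32 ± 0.17, and 0.22 without mutant replicate 2). The engrailed genes en1a, en1b, en2a and en2b, which pax2a and pax5 are known to regulate at the boundary, differed by 0.071, -0.013, -0.19 and -0.19, and the organizer signals fgf8a and wnt1 by -0.093 and -0.13, none past the threshold.

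In the pronephros list, where pax2a and pax8 are early regulators, all 11 tested genes had higher fitted values in mutants. The list median was 0.37, or between 0.23 (mutant replicate 1 left out) and 0.64 (mutant replicate 3 left out). For 4 of the 11 genes at least 1 genotype was at background, so their fitted values are no measured sizes. None of the 11 passed. At an unadjusted p under 0.05 there were 4 by limma, against 2.98% of all tested genes, and 4 with the block, against 7.42%. Arrays did not overlap, with mutants higher, in 3 of the 11, against 3.49% of all tested genes. The tubule transporter gene slc12a3 read 237.7, 469.4 and 105.2 in mutants and 49.5, 48.3 and 43.2 in siblings, which were at background, so it was at least 2.57-fold higher (limma, adjusted p = 0.942). The ATPase subunit gene atp1a1a.4 read 632.3, 619.3 and 284.5 in mutants and 204.4, 233.0 and 207.5 in siblings (1.11 ± 0.28). The transcription factor genes lhx1a and lhx1b, which act beside pax2 and pax8 genes in the early kidney, differed by 0.0040, the lowest of the list, and 0.14. Another transcription factor gene of the list, hnf1bb, had a larger fitted value of 1.46 (limma, unadjusted p = 0.0045, adjusted p = 0.942). Its level against the Tag controls is not given here. Without mutant replicate 3, 3 genes of the list passed the threshold, in a fit where 20 of all tested probe sets passed. This list was already known to be higher in these arrays when it was written, so it gives no independent support for a direction of pax2a or pax2b.

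The ear list, another territory of the pax2/5/8 genes, had 5 higher and 7 lower of 12 tested genes and a median of -0.044, which turned to 0.038 without wild-type replicate 2. None passed, and 0 had an unadjusted p under 0.05 without the block (limma), against 2.98% of all tested genes. With the block 4 did, against 7.42%. For 1 of the 12 genes a genotype was at background, as for 1 gene each in the inhibitory interneuron and eye lists. The fitted values of these genes are no measured sizes. The placode homeobox genes dlx4b (464.2 ± 180 in mutants, 658.6 ± 96.3 in siblings) and dlx3b (387.3 ± 150 in mutants, 578.1 ± 119 in siblings; SD, n = 3 each) had the smallest p. The list named for inhibitory interneurons, which in the spinal cord express pax2a, pax5 and pax8, also holds genes of other neurons, evx1 and evx2 among them. In this list 8 of 13 tested genes were higher and the median was 0.099, or -0.045 without wild-type replicate 3. There ptf1a, which specifies inhibitory neurons and pancreas, read 68.1, 48.4 and 83.5 in mutants and 94.8, 119.0 and 129.2 in siblings. It was above the Tag control on 2 arrays of each genotype, with wild-type replicate 2 (119.0) below a control of 122.3. Its fitted difference thus rests in part on values below those controls. All its mutant arrays lay below all its sibling arrays, as in 3.04% of tested probe sets (-0.67 ± 0.22, limma, unadjusted p = 0.014, adjusted p = 0.942). It was the 1 gene of this list under an unadjusted p of 0.05, against 2.98% of all tested genes. The next by p, evx2, read 45.1 ± 18.0 in mutants and 63.2 ± 5.5 in siblings (SD, n = 3 each) and overlapped between genotypes. It was above the Tag control on 1 array of each genotype.

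Beside pax6a and pax6b, the eye and lens list had 6 higher and 10 lower of 16 tested genes, with a median of -0.13, which turned to 0.030 without mutant replicate 2. None had an unadjusted p under 0.05 by limma, and 1 did with the block, against 2.98% and 7.42% of all tested genes. Its smallest p belonged to mab21l2 (798.3 ± 280 in mutants, 1110 ± 236 in siblings) and mab21l1 (685.7 ± 140 in mutants, 871.0 ± 174 in siblings; SD, n = 3 each), eye growth genes. The early eye field gene rx3 differed by -0.10 and six3a by 0.10. Of the 8 tested endocrine pancreas genes, 4 were higher and 4 lower, with a median of 0.015, or -0.028 without mutant replicate 1. None was under an unadjusted p of 0.05 (limma), the smallest being ascl1b (-0.35 ± 0.20) and scg3 (0.12 ± 0.17). Without mutant replicate 2 these were -0.15 and 0.067.

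Beside pax3a and pax7a, the dermomyotome and neural crest list had 10 higher and 8 lower of 18 tested genes, with a median of 0.10, which turned to -0.017 without mutant replicate 1. At an unadjusted p under 0.05 there were 2 by limma, against 2.98% of all tested genes, and 7 with the block, against 7.42%. The crest and dorsal neural tube gene msx1a read 250.3, 253.0 and 429.3 in mutants and 370.3, 548.5 and 558.1 in siblings (-0.66 ± 0.25). The muscle regulator myod1 read 111.5, 112.2 and 80.2 in mutants and 73.3, 69.7 and 57.6 in siblings (0.49 ± 0.20). Its mutant arrays all lay above its sibling arrays, as in 3.71% of tested probe sets. It was above the Tag control on only 2 mutant arrays and 1 sibling array, so this difference rests in part on values at or below those controls. Beside pax9, the sclerotome and arch list had 9 higher and 3 lower of 12 tested genes, with a median of 0.17, which turned to -0.081 without mutant replicate 1 and was 0.41 without mutant replicate 3. At an unadjusted p under 0.05 there were 2 by limma and 3 with the block, against 2.98% and 7.42% of all tested genes. The 2 were dlx5a, an arch and placode gene (551.4 ± 85.7 in mutants, 902.4 ± 21.0 in siblings), and the mesodermal forkhead gene foxc1a (410.9 ± 175 in mutants, 219.9 ± 61.2 in siblings; SD, n = 3 each). None of the genes in these lists passed after adjustment.

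**Figure D5:**
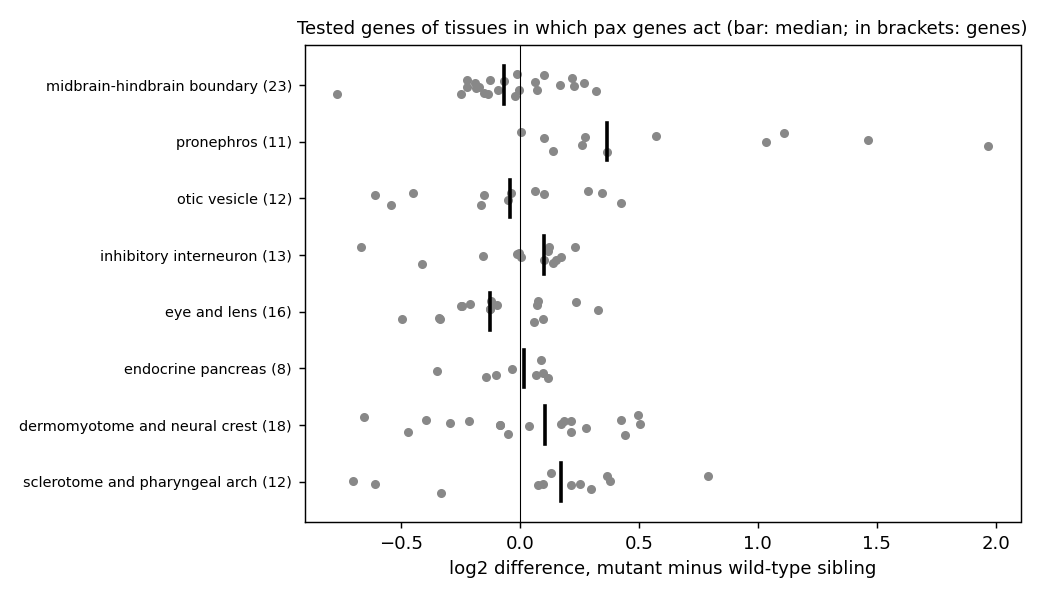
Fitted log2 difference, mutant minus wild-type sibling (x axis), of each tested gene (grey points) in 8 lists (rows, with the number of tested genes), with the median of each list as a black bar. All 11 pronephros genes lie above 0 with a median of 0.37, but 4 of them had a genotype at background and their points are no measured sizes. The ear (otic vesicle), inhibitory interneuron and eye lists each held 1 such gene. The medians other than that of pronephros lie between -0.13 and 0.17, each of these 7 turning sign with some single array left out.

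For each tested pax gene, the named gene with the most similar course over the 6 arrays was found by Pearson correlation of log2(signal + 16), which includes any genotype difference. These were pvalb6 for pax2a (r = 0.991), ccdc137 for pax2b (r = 0.996), metrn for pax5 (r = 0.991), rpn1 for pax6a (r = 0.979), timm29 for pax6b (r = 0.994), eftud2 for pax7a (r = 0.994) and pgam2 for pax9 (r = 0.988). With 6 arrays such values are common: of 6915 candidate genes, between 33 (pax9) and 346 (pax6b) correlated above 0.9 with a given pax gene. For pvalb6 no sibling array exceeded its Tag control, nor did mutant replicate 3, so its r rests in part on values below those controls. For pax5 the nearest gene, metrn, which encodes a secreted neurotrophic protein, had 3102 ± 208 in mutants and 3769 ± 246 in siblings (SD, n = 3 each). No pax gene was the nearest neighbour of another.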

How the data were processed

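The authors deposited a single intensity for every probe set on every array, on a linear scale, summarised with MAS5 according to the submitters' processing notes. The sources used here give neither its version nor detection calls. Trimming 2% from each end left a mean of 500.107 to 500.133 on every array, and median signals were 152 to 177. From 15617 probe sets, 115 controls were removed, then the lowest 25% by mean log2(signal + 16) (signal below 46.09), leaving 11626. Platform annotation, updated through gene identifiers to a RefSeq table of assembly GRCz12tu, named 10795 probe sets; 10711 matched. The brightest probe set stood for a gene. The genotype term was tested in R 4.3.3 using limma 3.58.1 (lmFit, then eBayes, intensity trend, 2-sided, Benjamini-Hochberg over all tested probe sets). Background rests on 17 Tag controls, and a lower bound sets the bright genotype's mean against the higher of each dim array's own value and its Tag control. The code was tested on simulated data. The number of arrays limits precision.

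Members, lists, the background rule and the comparisons around hand2 on chromosome 1 were chosen with earlier results of these data known. Named genes are the 9 members, hand2, the 2 genes of smallest p per list and the closest gene per member by correlation; other list genes in the text were chosen after their values were seen. Deviations from genotype means correlated between arrays of the same number at 0.193, 0.119 and 0.482. As all exceeded 0.1 the numbers were taken as pairs, on the data and not the labels, and 4 of 6 arrays correlated best with their own number. Unless the block is named, standard errors, intervals and p-values are from the limma fit without this pairing.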

Additional observations from a re-analysis of the deposited data

How the results depend on the processing

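Each result was refitted under up to 18 alternatives, without those whose filter removed its probe set: offsets of 1 and 64, no filter or the lowest 50% left out, common median and quantile scaling, the replicate number as a block, no intensity trend, array weights, each array left out, and both arrays of a number left out. In 137 refits of the 8 tested pax probe sets, 130 kept their fitted sign and 0 passed the threshold, with 0.346 as the smallest adjusted p (limma, pax5, without mutant replicate 3). Of the 130, 15 belong to the dimmer pax2b probe set, whose sign is no measured direction. The filter, block and trend settings cannot change a fitted difference. Leaving arrays out cannot turn the sign of pax2a or pax5, whose arrays did not overlap. The replicate block changed no call at the adjusted threshold; the count of all probe sets past it was 1 with the block as without. The pax count at an unadjusted p under 0.05 was 1, and 2 with quantile scaling, the block, no trend, array weights, without mutant replicate 3, wild-type replicate 2 or both arrays of number 3. It was 0 without both arrays of number 2, and with the lowest 50% left out, where pax5 itself is removed.

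Among pax probe sets, signs turned for pax9, pax7a and pax6a. For pax9 (0.046) they were -0.033 with a common median, -0.031 with quantile scaling, -0.024 without mutant replicate 1 and -0.040 without both arrays of number 1. For pax7a (-0.12), which ran from -0.25 to 0.047 with single arrays left out, it was 0.047 without mutant replicate 2 and 0.11 without both arrays of number 2, and for pax6a 0.057 there. Among the genes named for similar course, rpn1 turned to 0.029 and eftud2 to 0.22 without both arrays of number 2, eftud2 to 0.0998 without mutant replicate 2 (from -0.35 over single arrays left out), and pgam2 to -0.059 without both arrays of number 1. With single arrays left out, the medians of the tissue lists also turned sign in 7 of 8 lists, all but pronephros. In those fits dlx3b ran from -0.87 to -0.31, dlx4b from -0.83 to -0.35 and mab21l2 from -0.76 to -0.30. Likewise mab21l1 ran from -0.50 to -0.18, evx2 from -0.64 to -0.29 and foxc1a from 0.56 to 1.20. The pax class medians moved by less than their spread over replicate numbers, also with all tested probe sets of a gene averaged. That spread was itself larger than either median. The eye, muscle and arch median turned from -0.099 to 0.014 without mutant replicate 2 and to 0.068 without both arrays of number 2.

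The number of probe sets past the threshold ran from 0 to 20 with single arrays left out, 20 with mutant replicate 3 left out and 0 with wild-type replicate 1 or 2 left out, and it was 0 without both arrays of any number. The fitted hand2 difference ran from -2.65 to -2.36 with single arrays left out, and was -2.56, -2.37 and -2.60 without both arrays of number 1, 2 and 3, where it missed the threshold. As hand2 was at background in mutants, these are no measured sizes, and with all arrays siblings were at least 4.35-fold higher. The hand2 probe set was kept under every filter, whatever its signal. In the pronephros list 0 to 3 genes passed with single arrays left out. Dim signal limits pax3a, pax8 and the second probe sets of pax2a and pax5, for which neither a difference nor its absence can be stated.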
